A study of Penicillium oxalicum with 6 samples.

Results

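A stretch of 35 neighbouring genes of the filamentous fungus Penicillium oxalicum, POX_c04502 to POX_c04536 by locus tag, is described here in 6 RNA-seq libraries. At its centre lies a block of 15 genes, POX_c04512 to POX_c04526, with 10 tags on each side as flanks. The block was chosen because its tested genes had formed an unbroken run of higher levels in the silenced libraries, and the flanks were chosen by tag number. The block ends where that run stopped. The choice thus also fixed that the nearest tested gene on each side was not called higher. The contrast between the groups therefore selected the block, and its size and calls are given as a description that supports nothing further. All 35 genes are among the 10899 IDs listed in each file. In the RefSeq gene table of assembly ASM172317v3, made from strain HP7-1, 34 of them lie on chromosome III in tag order, and POX_c04531 has no entry there. That table places 1 tRNA gene between POX_c04506 and POX_c04507. It places 2 rRNA genes between POX_c04508 and POX_c04509, and another 2 inside the block, between POX_c04520 and POX_c04521. None of these 5 RNA genes is listed by its tag in the files.

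The parental group, 3 libraries, is the △PoxKu70 strain, which lacks a gene of non-homologous end joining (repair of DNA breaks without a template), although the genotype field of these samples gives wild type. The silenced group, also 3 libraries, is a strain of the same background in which the gene written POc04478 was silenced once 5 μM copper ions had been added, while for the parental cultures copper is not mentioned. Mycelium of both groups was grown for 24 h on glucose and then kept for 24 h in an enzyme-production medium, whose carbon source is Avicel (microcrystalline cellulose) in the protocol and raw starch in the treatment field. The labels give no silencing method beyond the copper and say neither whether the strain is 1 clone nor whether each replicate is its own culture, so the p-values reflect how far these libraries vary, for which the source may in part be technical.

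In filamentous fungi, genes that serve the same pathway can lie side by side and be transcribed together. This is known for many pathways of specialised metabolism and for some that take up and use nutrients. Such clusters are often silent in standard culture and can hold genes for enzymes, transporters and a transcription factor of their own. The files and the gene table name no product for any of the 35 genes, so none is given a function here, and whether the block is such a cluster was not tested.

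Levels are FPKM (fragments normalised for transcript length and for library size), so levels of different genes can be compared per length. Each library had between 9737 and 9937 IDs above 0. The depth of the libraries is known only in relative terms, as 1 to 1.58 times that of parental replicate 1. The targeted gene, matched to the tag POX_c04478, had a mean of 135 ± 21.7 FPKM (SD, n = 3) in the parental group and of 17.6 ± 1.56 FPKM in the silenced group. Differences between groups are log2 fold changes, silenced minus parental, on the log2(FPKM + 1) scale with their standard error (SE). A gene was called when its adjusted p in limma was under 0.05. Over the 9341 tested IDs 54.8% were called, 24.4% higher and 30.4% lower in the silenced libraries, and the median log2 fold change was -0.12. Parental replicate 1 stood apart, since 638 tested IDs were there at most 0.5 times the level in both other libraries of its group on the scale of FPKM + 1, against 35 to 73 in each of the other 5 libraries. Without it all 11 tested block genes were called higher, with a median log2 fold change of 3.10. Nothing is read from these calls, because the same contrast chose the block. Mycelium could not be checked against marker genes because no gene carries a product name.

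Of the 35 genes, 25 passed the filter on low values, which asked for 1 FPKM or more in 3 libraries or more. Of these, 13 were called higher and 4 lower in the silenced libraries, and 8 were not called. Over all tested IDs 24.4% were called higher and 30.4% lower. The 13 higher genes were the 11 tested genes of the block, POX_c04504 in the left flank and POX_c04535 in the right flank. The 11 were chosen for being higher, so nothing is read from the count of 13. All silenced values lay above all parental values in 15 of the 25 tested genes, against 29.2% of all tested IDs, and below them in 5, against 36.6%. Among the 10 untested genes, 5 were listed at 0 in every library and 5 had low values.

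**Figure D1:**
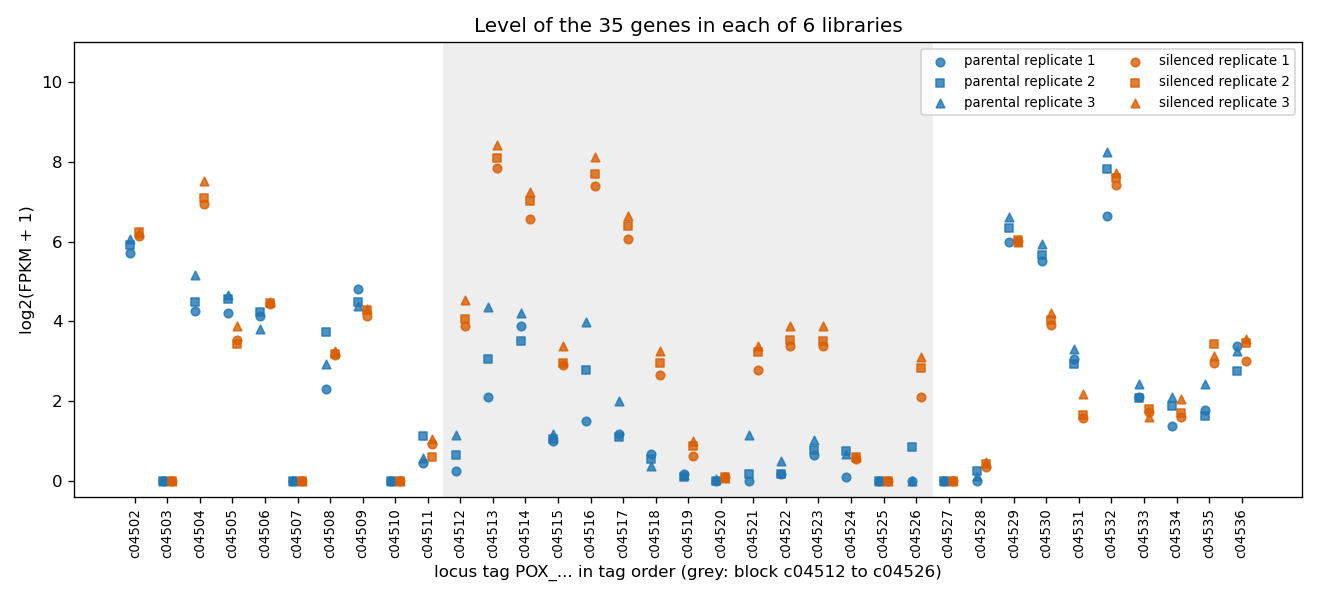
Level of each gene as log2(FPKM + 1) on the vertical axis, by locus tag in order, with 1 point per library (blue parental, orange silenced, the shape giving the replicate). Inside the grey block the silenced points of the 11 tested genes lie above all parental points, while POX_c04525 stays at 0 and most flank genes have points of both colours close together.

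The summed level of the 15 block genes was 22.8, 29.0 and 60.9 FPKM in parental replicates 1, 2 and 3, and 610, 761 and 957 FPKM in silenced replicates 1, 2 and 3. The means of these sums were 37.6 ± 20.4 and 776 ± 174 FPKM (SD, n = 3), a ratio of 20.7. The sum was thus low in each parental library and far higher in each silenced library, but it does not give the level of most genes. In the silenced group 4 of the 15 genes had a mean under 1 FPKM. Most of the sum came from POX_c04513, POX_c04514, POX_c04516 and POX_c04517, near the left edge of the block. These 4 genes together held 84.3% to 90% of the sum in the parental group and 91% to 91.3% in the silenced group.

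POX_c04513 was the most abundant gene of the block in the silenced libraries. It had 3.31, 7.25 and 19.4 FPKM in parental replicates 1, 2 and 3 and 229, 275 and 342 FPKM in silenced replicates 1, 2 and 3. The groups lay far apart, although the highest parental value was several times the lowest. By mean level the gene moved from rank 7079 of the 10899 IDs in the parental group to rank 760 in the silenced group. The ratio of means was 28.2, or 53.4 without parental replicate 3, and the log2 fold change was 4.96 ± 0.53 (SE).

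POX_c04516, 3 tags further along, behaved much like it. Its values were 1.83, 5.81 and 14.8 FPKM in the parental libraries and 167, 207 and 278 FPKM in the silenced libraries, in replicate order. Parental replicate 3 was again the highest of its group and replicate 1 the lowest. The ratio of means was 29.1, or 56.9 without parental replicate 3, and the log2 fold change of 4.99 ± 0.59 (SE) was at rank 18 from the highest among the tested IDs. The level of POX_c04513 relative to POX_c04516 was 1.25 to 1.81 in parental and 1.23 to 1.37 in silenced libraries, so the pair kept nearly the same proportion in both groups.

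POX_c04517, the next gene, started lower. Its parental values were 1.27, 1.15 and 3.00 FPKM and its silenced values 65.7, 83.4 and 99.8 FPKM. Its groups were widely separated, with a ratio of means of 45.9, a log2 fold change of 4.94 ± 0.28 (SE) and rank 20 from the highest. POX_c04516 exceeded it 1.44-fold to 5.05-fold in the parental and 2.48-fold to 2.79-fold in the silenced libraries.

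POX_c04514 was the gene of the block with the highest parental mean. Its parental values were 13.7, 10.3 and 17.5 FPKM and its silenced values 94.4, 129 and 151 FPKM. The parental libraries lay closer together here than in other abundant genes of the block, with a coefficient of variation of 26.2%, against 84.1% in POX_c04513 and 88.8% in POX_c04516. Its ratio of means was 9.01 and its log2 fold change 3.09 ± 0.24 (SE). POX_c04515 beside it had 0.99, 1.07 and 1.24 FPKM in the parental and 6.48, 6.80 and 9.49 FPKM in the silenced libraries. Its coefficient of variation was 11.6% in the parental and 21.8% in the silenced group. Its log2 fold change of 2.02 ± 0.19 (SE) was the smallest of the 11 tested block genes, and its ratio of 6.9 the smallest of the 9 that were above 0 in every library.

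The make-up of the block therefore differed between the groups and, among the parental libraries, from library to library. POX_c04514 supplied 60.2%, 35.4% and 28.8% of the summed block level in parental replicates 1, 2 and 3, and 15.5% to 17% in the silenced libraries. POX_c04513 supplied 14.5%, 25% and 31.9% in the same parental libraries and 35.7% to 37.5% in the silenced ones. The share of POX_c04516 ran from 8.03% to 24.3% in the parental and from 27.2% to 29% in the silenced libraries. POX_c04517 supplied 3.96% to 5.57% and 10.4% to 11%. A share within a library does not depend on how the libraries were scaled. For all 4 genes the silenced shares spanned a narrower range than the parental shares, and the 2 ranges did not overlap. Shares of 1 sum depend on each other, so the 4 genes are not separate observations. They also come from the values that chose the block, so they are a description only.

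**Figure D2:**
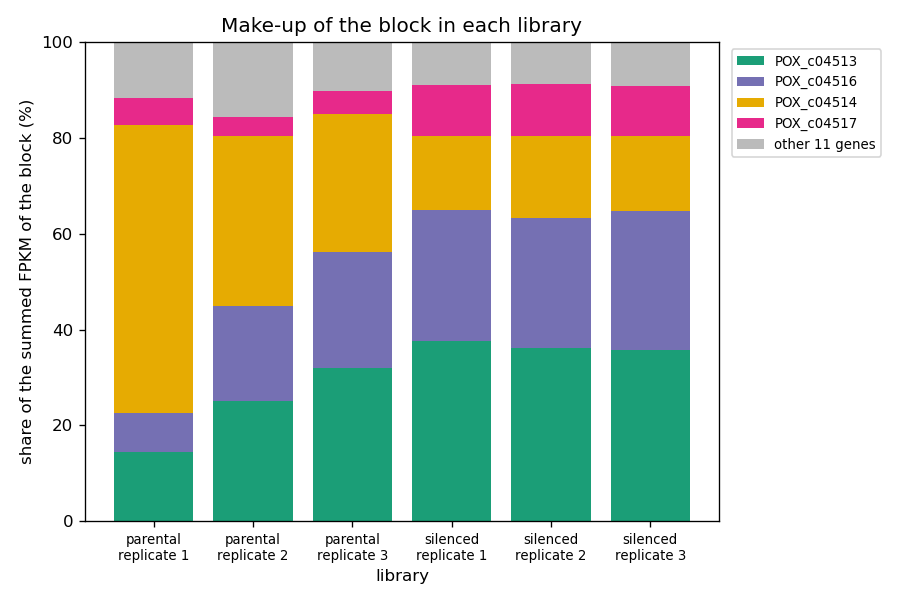
Share of the summed FPKM of the 15 block genes (vertical axis, percent) taken by the 4 most abundant genes and by the other 11, for each library. The 3 silenced bars are nearly alike, while the yellow share of POX_c04514 goes from 28.8% to 60.2% among the parental bars.

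At the left edge of the block, POX_c04512 had 0.19, 0.55 and 1.22 FPKM in parental libraries against 13.7, 15.7 and 22.2 FPKM in silenced ones. The groups were far apart, with a ratio of means of 26.3 and a log2 fold change of 3.48 ± 0.29 (SE). Without parental replicate 3 the ratio was 46.5. The gene just outside, POX_c04511, had 0.35, 1.18 and 0.49 FPKM in the parental and 0.88, 0.50 and 1.08 FPKM in the silenced libraries. Its groups overlapped, it reached 1 FPKM in 2 libraries only, and it was not tested. The nearest gene beyond it, POX_c04510, was listed at 0 throughout. POX_c04509, the nearest tested gene on this side, had 22.7 ± 3.71 and 18.0 ± 1.2 FPKM (SD, n = 3) and was not called. That it was not called higher follows from where the block was ended, so nothing is read from this edge.

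The right part of the block was less abundant. POX_c04518 had 0.58, 0.45 and 0.28 FPKM in the parental group against 5.33, 6.79 and 8.53 FPKM in the silenced group. It was the only tested block gene above 0 in every library in which parental replicate 3 was the lowest of its group, and its ratio of means was 15.8. POX_c04522 had 0.12, 0.12 and 0.40 FPKM in the parental libraries and 9.48, 10.5 and 13.8 FPKM in the silenced libraries. Its ratio of 52.8, which was 93.9 without parental replicate 3, was the highest of the 9 tested block genes above 0 in every library, and it rested on a parental mean of 0.213 FPKM.

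POX_c04523 followed POX_c04522 closely in the silenced libraries, where it had 9.37, 10.3 and 13.9 FPKM. The ratio of POX_c04522 to POX_c04523 was 0.994 to 1.02 there. It was 0.171 to 0.385 in the parental libraries, where POX_c04523 had 0.57, 0.70 and 1.04 FPKM. The 2 genes thus had nearly equal levels per length in each silenced library. In each parental library POX_c04522 was listed below POX_c04523. All these parental values were 1.04 FPKM or less, and the part of counting error in their ratio was not tested.

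For POX_c04521 and POX_c04526 no fold is given, because some parental libraries listed them at 0. POX_c04521 was listed at 0, 0.13 and 1.2 FPKM in parental replicates 1, 2 and 3 and at 5.82, 8.46 and 9.45 FPKM in silenced replicates 1, 2 and 3. POX_c04526, the right edge, was listed at 0, 0.80 and 0 FPKM and then at 3.25, 6.10 and 7.53 FPKM. In both genes each silenced value exceeded each parental value, and their log2 fold changes were 2.69 ± 0.34 and 2.39 ± 0.36 (SE).

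Within the block 4 genes were not tested. POX_c04519 had 0.13, 0.07 and 0.10 FPKM in the parental and 0.53, 0.84 and 1.00 FPKM in the silenced libraries. Its groups did not overlap, and with no filter on low values it was called higher, with a log2 fold change of 0.69 ± 0.15 (SE). POX_c04520 beside it never exceeded 0.07 FPKM, and 2 parental libraries listed it at 0. POX_c04524 had 0.07, 0.67 and 0.60 FPKM in the parental and 0.47, 0.52 and 0.50 FPKM in the silenced libraries, so its groups overlapped. POX_c04525 was listed at 0 throughout. Genes at or near 0 thus lay between genes with much higher silenced levels.

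**Figure D3:**
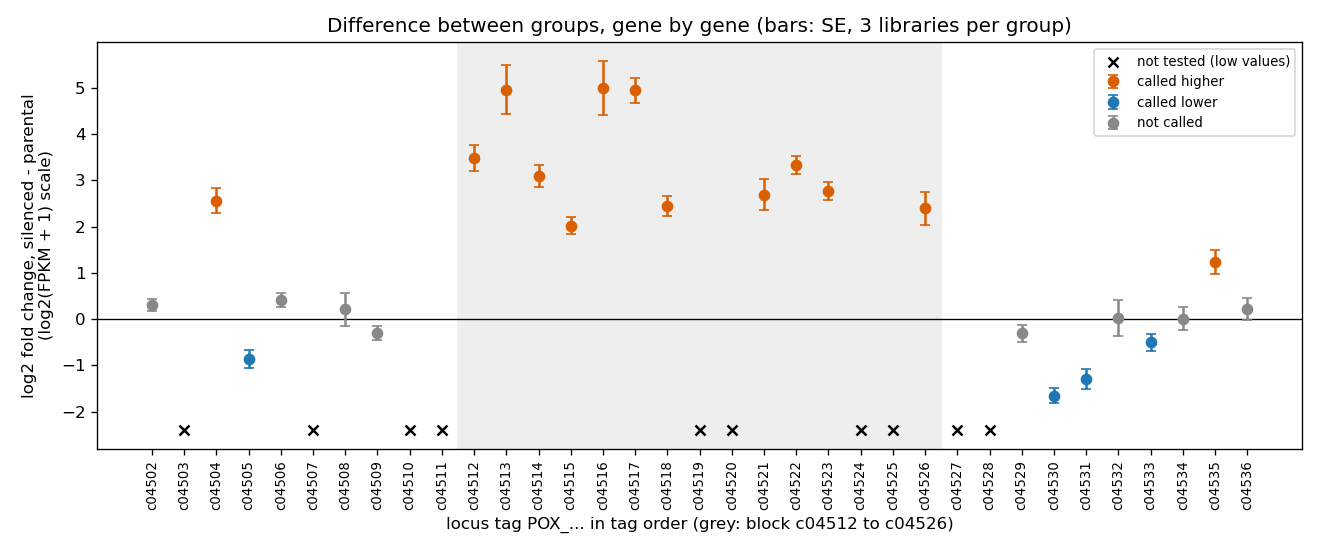
Log2 fold change of each tested gene, silenced minus parental, on the log2(FPKM + 1) scale (vertical axis, bars SE, 3 libraries per group) by locus tag in order, with crosses for the 10 untested genes. The tested genes of the grey block lie between 2.02 and 4.99, and the flanks lie between -1.66 and 2.56.

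All 11 tested block genes were called higher, where 24.4% of the tested IDs were, and in all 11 each silenced value exceeded each parental value, which held for 29.2% of the tested IDs. Nothing is read from either count, because the calls chose the block. The filter also favours such calls. Of the 11 genes, 6 had a parental mean under 1 FPKM and passed through the silenced libraries. Over all genes, 223 tested IDs had a parental mean under 1 FPKM, and 167 of them (74.9%) were called higher. The median log2 fold change of the 11 was 3.09, against -0.12 over all tested IDs. It depended on the pseudocount, with 1.63 at a pseudocount of 5 and 4.70 at 0.1, and on which genes passed the filter.

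By mean silenced level the order was POX_c04513, POX_c04516, POX_c04514, POX_c04517, POX_c04512, POX_c04522, POX_c04523, POX_c04521, POX_c04515, POX_c04518, POX_c04526, POX_c04519, POX_c04524, POX_c04520 and POX_c04525. Several neighbours in that order were not separated beyond the spread between libraries. The values of POX_c04513 and POX_c04516 overlapped, as did those of POX_c04514 and POX_c04517, and those of each adjacent pair from POX_c04512 down to POX_c04526. The remaining neighbours did not overlap. The ratio within a library was 1.6 to 1.84 for POX_c04516 over POX_c04514, 4.49 to 5.32 for POX_c04517 over POX_c04512 and 6.13 to 7.53 for POX_c04526 over POX_c04519. Lower down, at levels of 1 FPKM or less, it was 1.13 to 2 for POX_c04519 over POX_c04524 and 6.71 to 10 for POX_c04524 over POX_c04520, while POX_c04525 was listed at 0. Within each silenced library POX_c04513 nevertheless exceeded POX_c04516, by 1.23-fold to 1.37-fold. In the parental libraries POX_c04514 led in replicates 1 and 2 and POX_c04513 in replicate 3.

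The order of the libraries within a group was not used to choose the block, and it was largely shared by its genes. In the silenced group, replicate 3 was the highest and replicate 1 the lowest in each of the 11 tested block genes, a pattern that 45.1% of all tested IDs showed. The flanks showed this pattern too, in 66.7% of the 6 tested genes on the left and 62.5% of the 8 on the right. The level in silenced replicate 3 relative to replicate 1 was 1.45 to 1.66 in 10 of the 11 genes and 2.32 in POX_c04526. Over the tested IDs above 0 in both libraries the median of this ratio was 1.10, with 0.799 and 1.56 as the 10th and 90th percentiles. The level in silenced replicate 2 relative to replicate 1 had a median of 1.24 over the 11 genes. Over all tested IDs above 0 in silenced replicate 1 this median was 1.05. Among the 11 genes this ratio was less even, from 1.05 in POX_c04515 to 1.45 in POX_c04521 and 1.88 in POX_c04526. The share of POX_c04526 in the summed block level accordingly ran from 0.533% to 0.802% among the silenced libraries.

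The parental libraries differed more, and less evenly. Parental replicate 3 was the highest of its group in 9 of the 11 genes, against 30.1% of all tested IDs, and replicate 1 was also the lowest in 6 of those, against 19.7%. This order was not particular to the block. Parental replicate 3 was the highest in 50% of the tested genes of the left flank and 87.5% of those of the right flank. With replicate 1 also the lowest, the share was 50% in each flank. Relative to parental replicate 1, the level in replicate 3 was 8.09-fold in POX_c04516, 6.42-fold in POX_c04512 and 5.87-fold in POX_c04513. It was 1.28-fold in POX_c04514, 1.25-fold in POX_c04515 and 0.483-fold in POX_c04518. The 10th and 90th percentiles over the tested IDs were 0.638 and 2.14. Low values carry more counting error, which FPKM does not show, and its part in this spread was not tested. These proportions are descriptions, because neighbouring genes of the same library are not replicates.

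The left flank held 6 tested genes, of which 1 was called higher, 1 lower and 4 were not called. Among all tested IDs 24.4% were called higher and 30.4% lower. POX_c04504, which lies 8 tags before the block, had 18.1, 21.3 and 34.5 FPKM in the parental and 123, 136 and 182 FPKM in the silenced libraries. Its groups were well separated, with a ratio of means of 5.96 and a log2 fold change of 2.56 ± 0.27 (SE), and both groups had their highest value in replicate 3 and their lowest in replicate 1, as in POX_c04513. The level of POX_c04513 relative to it was 1.86 to 2.02 in the silenced and 0.183 to 0.563 in the parental libraries. Its neighbour POX_c04505 went the other way. Its mean was 21.5 ± 3.56 FPKM in the parental and 11.4 ± 2.18 FPKM in the silenced group (SD, n = 3), and the log2 fold change was -0.86 ± 0.19 (SE).

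POX_c04502 and POX_c04506 were higher in each silenced library than in each parental library but by small amounts, with log2 fold changes of 0.31 and 0.41, and neither was called. Both were called after median-of-ratios scaling and with library weights. POX_c04506 lay close to the threshold, with an adjusted p of 0.051 in limma. It was also called when filtered at a mean of 5 FPKM, with a pseudocount of 5 and without parental replicate 1 or 2. POX_c04508 had 3.89, 12.2 and 6.63 FPKM in the parental and 7.85, 8.09 and 8.51 FPKM in the silenced libraries, so its parental libraries enclosed the silenced ones, and without parental replicate 1 its direction turned. POX_c04503 and POX_c04507 were listed at 0 in all 6 libraries, like POX_c04510.

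The right flank opened with POX_c04527, listed at 0 throughout, and POX_c04528, which had 0, 0.19 and 0.08 FPKM in the parental and 0.26, 0.34 and 0.39 FPKM in the silenced libraries. The latter was separated between the groups yet below 0.4 FPKM, and it was not tested. Of the 8 tested genes, 1 was called higher and 3 lower, against 24.4% and 30.4% of all tested IDs. POX_c04529, the nearest tested gene to the block on this side, had 80.4 ± 17.5 and 63.7 ± 0.948 FPKM (SD, n = 3). It was not called, but it was called lower without parental replicate 1 and with library weights. That POX_c04529 was not called higher again follows from where the block was ended.

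POX_c04530 and POX_c04531, which follow it, were both lower in the silenced libraries. POX_c04530 had 45.0, 50.1 and 60.1 FPKM in the parental and 13.9, 15.4 and 17.4 FPKM in the silenced libraries, and its log2 fold change was -1.66 ± 0.16 (SE). POX_c04531 went from 7.60 ± 1.10 to 2.55 ± 0.853 FPKM (SD, n = 3), with a log2 fold change of -1.29 ± 0.22 (SE). The groups did not overlap in either gene, and the parental level was 3.32 and 2.98 times the silenced level. POX_c04533 was called lower, at 3.63 ± 0.647 and 2.26 ± 0.235 FPKM, and this call was lost in 8 of the 13 alternative fits that tested the gene, among them the removal of any silenced library.

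POX_c04535 was the only higher gene of the right flank, with 2.43, 2.09 and 4.35 FPKM in the parental and 6.68, 9.85 and 7.82 FPKM in the silenced libraries. Its groups did not overlap, and its log2 fold change was 1.23 ± 0.26 (SE). POX_c04532, the most abundant parental gene of the 35, had 98.3, 224 and 302 FPKM in the parental and 170, 194 and 210 FPKM in the silenced libraries. The parental libraries enclosed the silenced ones, and parental replicate 1 lay far below the other two. POX_c04534 had 2.51 ± 0.863 and 2.48 ± 0.559 FPKM, and POX_c04536 had 7.88 ± 1.89 and 9.30 ± 1.99 FPKM (SD, n = 3). Neither was called.

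The block is separated from the targeted gene by 34 tags. To see whether the higher levels ran on along the chromosome, the 23 listed tags from POX_c04479 to POX_c04501, between the target and the flank, were set beside the 22 listed tags from POX_c04537 to POX_c04559 on the far side. All 23 genes on the target side were tested, of which 2 were called higher and 7 lower, with a median log2 fold change of -0.13. On the far side 13 were tested, of which 1 was called higher and 7 lower, with a median of -0.79. The higher gene there, POX_c04545, had means of 2.09 FPKM in the parental and 12.1 FPKM in the silenced group. Its log2 fold change of 2.10 ± 0.20 (SE) was similar to the smallest in the block, 2.02 in POX_c04515. The medians of the left and right flanks were 0.26 and -0.15. Of all tested IDs 54.8% were called, 24.4% higher and 30.4% lower. The shares called in either direction were 39.1% on the target side, 33.3% in the left flank, 50% in the right flank and 61.5% on the far side. The median parental level of the tested genes was 20.4 FPKM on the target side, 22.1 in the left flank, 0.77 in the block, 7.74 in the right flank and 10.5 on the far side. The choice of the block and the filter both favour a low parental median there, so nothing is read from it. In the silenced libraries these medians were 20.7, 19.5, 11.3, 8.71 and 9.18 FPKM. The difference between these stretches was not tested, because the block had been chosen for it.

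**Figure D4:**
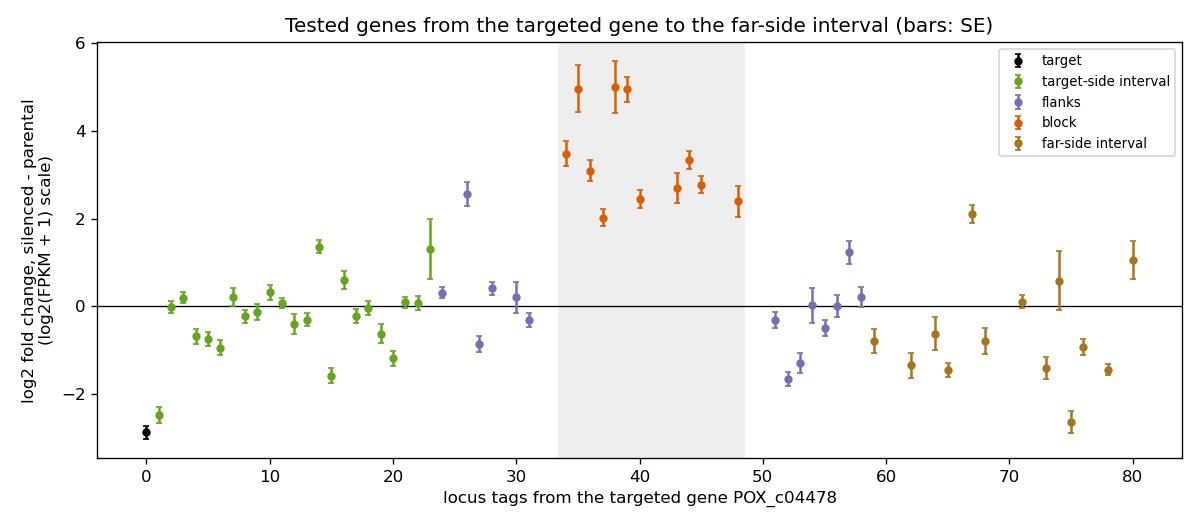
Log2 fold change of each tested gene (vertical axis, log2(FPKM + 1) scale, silenced minus parental, bars SE, 3 libraries per group) against the number of locus tags from the targeted gene POX_c04478. The target lies at -2.87, the genes between it and the flank mostly near 0 or below, the 11 tested block genes in grey between 2.02 and 4.99, and the far-side genes mostly below 0.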

How the data were processed

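Poly(A) RNA was sequenced in 6 libraries, 3 per group. The deposited values are FPKM, computed by the authors for each library, per the file headers. Tools named in the submitters' processing notes are bcl2fastq and HISAT2, with no version. The sources used here do not give the counting program, strand handling, genome build or annotation, so no coordinates are printed and reads of overlapping neighbours could not be told apart. A prefix on the IDs of 1 library was removed, and no 2 libraries held the same values. The files hold no counts. Relative depth was estimated from the steps of values between 0.15 and 1.2 FPKM. Silenced was compared with parental with limma 3.58.1 in R 4.3.3. The fit used log2(FPKM + 1) and a variance trend, and covered 9341 IDs that reached 1 FPKM in 3 or more libraries. P-values were two-sided and Benjamini-Hochberg adjusted over all of them, and the scale understates changes of low genes. The fit was tested on simulated data in which only IDs above a set mean level were given a change. Recovery of changes in genes of lower mean was not tested. Every member is accounted for by value, and genes outside the 35 are named only where an edge or interval needs them. The members and lists were chosen with earlier results of these data known.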

Additional observations from a re-analysis of the deposited data

How the results depend on the processing

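The 11 tested block genes were called higher with each of the pseudocounts, with median-of-ratios scaling, library weights, no variance trend or the replicate block, and without any parental library. Filtering at a mean of 5 FPKM left 7 tested and 7 called, and without a silenced library 8 of 8, since POX_c04518, POX_c04522 and POX_c04526 then failed the filter. With no filter 12 of 14 were called. Their median log2 fold change of 3.09 was 1.63 with a pseudocount of 5, 4.70 with 0.1, 2.73 with no filter, 3.48 when filtered at a mean of 5 FPKM and 2.90 to 3.45 without 1 library. A larger pseudocount compresses changes of low genes, and each filter changes which genes enter. Called genes of the left flank numbered 4 instead of 2 with median-of-ratios scaling and with library weights. That scaling moved the median log2 fold change of all tested IDs from -0.12 to -3.2e-04, and the share of higher among called IDs went from 44.5% to 51.9%. Over all tested IDs 5118 were called, and 3603 to 5576 without 1 library. Among uncalled genes, the log2 fold change of POX_c04508 (0.21) was -0.13 to 0.58 without 1 library and that of POX_c04532 (0.02) -0.45 to 0.36, or -0.34 with library weights. For POX_c04534 (0.01) it was -0.20 to 0.17 without 1 library, -0.24 with library weights and -0.0019 with a pseudocount of 5. The cause was not tested. The estimate of library weights stopped short of its tolerance. Same-numbered libraries did not pair over all tested IDs (correlations of 0.00, 0.03 and 0.12, and some libraries correlated better with another number). The replicate block gave 11 called block genes and 4667 called IDs. Since fragment numbers are unknown, how much of the spread at low levels is counting error was not tested.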
